A study of Mus musculus with 37 samples.

Results

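Mast cells are tissue-resident leukocytes that store histamine, heparin and proteases in cytoplasmic granules, and 8 of the genes that define them were followed here through the carcinogen-treated ureter and bladder of mice. The 8 are defined by name and were found among the 24421 gene symbols of the table. Cpa3, Mcpt4, Tpsb2 and Cma1 encode granule proteases, Kit the receptor for stem cell factor, Ms4a2 and Fcer1a the β and α chains of the high-affinity IgE receptor, and Hdc the enzyme that makes histamine from histidine. All 8 passed the filter on low counts in every main fit, and Ms4a2 was not tested in some alternative fits.

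Whole-transcriptome sequencing covered 37 libraries of tissue from wild-type BALB/c females. The treated mice drank 0.05% N-butyl-N-(4-hydroxybutyl) nitrosamine (BBN), a carcinogen of the urothelium, from 6 to 7 weeks of age, for 18 weeks by the labels and with euthanasia at 17 to 20 weeks by the study's methods. The control mice drank tap water, and no mouse carried a transgene. Cancerous ureter of treated mice (UT) gave 11 libraries, of which 10 entered the fits, the noncancerous ureter of treated mice (UN) gave 7, and ureter of untreated mice (U) gave 6. The bladder gave 10 libraries of treated mice, of which 9 entered the fits, and 3 of untreated mice. The 6 U libraries are both ureters of 3 mice, and UT 5R and UT 5L are the ureters of 1 mouse, so tests that count libraries as independent can give p-values that are too small. Total counts per library ran from 9724542 to 16735797 in UT, 4675081 to 14973904 in UN, 12980008 to 18793560 in U, 3557697 to 15104379 in BBN bladder and 14348701 to 16617435 in untreated bladder.

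Several libraries stood apart in tissue content. Levels are given in CPM, the count scaled to a common library total. Group ranges of levels, here and below, are over the libraries in the fits. Summed CPM of 6 adipocyte markers were 22837 to 28322 in U, 4433 to 23435 in UN and 40.3 to 10070 in UT. UT 4 carried 1975 CPM of 6 kidney tubule markers, and UN 2 carried 17.5 CPM of 8 urothelial markers, against 1920 to 6968 in the 10 UT libraries. The RNA integrity number was under 5 in 1 UN library (UN 6), 1 U library and 3 BBN bladders. In bulk tissue fewer mast cells and less RNA of these genes in each mast cell cannot be told apart.

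Mast cells leave the marrow as precursors and mature in tissue under stem cell factor, the ligand of Kit. Those of connective tissue in the mouse are known for the chymases Mcpt4 and Cma1, the tryptases Tpsb2 and Tpsab1 and the carboxypeptidase Cpa3, whereas those of inflamed mucosa and epithelium are known for Mcpt1 and Mcpt2. Antigen that cross-links IgE on the receptor formed by Fcer1a, Ms4a2 and Fcer1g starts a kinase cascade through Lyn and Syk that ends in release of the granules. Several of the genes are not private to mast cells: Kit also marks interstitial cells of Cajal and melanocytes, Fcer1a and Ms4a2 are shared with basophils, and Hdc is also made by neutrophils and basophils.

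The genes lie on 7 chromosomes of GRCm38 by the GENCODE vM21 annotation, and all are protein-coding. Mcpt4 (chr14:56059629-56062313) and Cma1 (chr14:55941451-55944675) belong to the chymase cluster on chromosome 14, which also holds Mcpt1 (chr14:56017971-56020384) and Mcpt2 (chr14:56042041-56044642). Tpsb2 (chr17:25366305-25369098) stands beside the other tryptase Tpsab1 (chr17:25343245-25345562). Cpa3 is at chr3:20215620-20242181, Kit at chr5:75574916-75656722, Ms4a2 at chr19:11615523-11623719, Fcer1a at chr1:173221284-173227214 and Hdc at chr2:126593667-126619299. Exact 100-base windows of the transcripts were shared with another gene in 0.0991% of windows for Mcpt4 and 0.406% for Ms4a2, and in 0 windows for the other 6 members, Tpsab1, Mcpt1 and Mcpt2. Reads from these close relatives can be told apart where they match without error.

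GATA factors, of which GATA2 is needed by mast cells, bind a core that reads GATAA on 1 strand and TTATC on the other. Among the 7 members with a RefSeq promoter entry (GRCm38.p6), the 250 bases before the start held GATAA on either strand in 5, namely Cpa3, Mcpt4, Cma1, Ms4a2 and Fcer1a, against 22.6% of 32851 promoters of the same length. Kit and Hdc held none in this window. TATAAA on either strand was present in Cpa3, Mcpt4 and Fcer1a (12.4% of all promoters) and CATGTG, an E-box of the kind that MITF binds, in Fcer1a alone (12.3%); a GATAA and a TATAAA match cannot share bases. The promoters of 3 member proteases and of Mcpt1 are shown 5′ to 3′ in the direction of the gene, because Cpa3, Mcpt4 and Cma1 are members and Mcpt1 is the neighbour of Mcpt4 whose level is set beside theirs below, with the GATAA or TTATC match in capitals.
Cpa3, chr3:20242182-20242431, minus strand: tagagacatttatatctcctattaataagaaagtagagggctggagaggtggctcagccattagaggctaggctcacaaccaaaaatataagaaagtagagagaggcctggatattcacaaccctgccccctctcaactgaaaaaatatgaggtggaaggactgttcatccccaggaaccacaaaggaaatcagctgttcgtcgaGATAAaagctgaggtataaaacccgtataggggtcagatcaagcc
Mcpt4, chr14:56062311-56062560, minus strand: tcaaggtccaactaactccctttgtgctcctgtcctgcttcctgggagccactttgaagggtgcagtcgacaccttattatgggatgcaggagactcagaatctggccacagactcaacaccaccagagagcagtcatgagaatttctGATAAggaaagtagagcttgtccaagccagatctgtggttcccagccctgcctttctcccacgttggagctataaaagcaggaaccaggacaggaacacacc
Mcpt1, chr14:56017714-56017963, plus strand: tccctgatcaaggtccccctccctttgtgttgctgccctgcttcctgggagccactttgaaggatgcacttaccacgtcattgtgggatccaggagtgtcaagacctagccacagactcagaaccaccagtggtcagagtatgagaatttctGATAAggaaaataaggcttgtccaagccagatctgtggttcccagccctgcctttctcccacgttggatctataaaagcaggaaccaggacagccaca
Cma1, chr14:55944676-55944925, minus strand: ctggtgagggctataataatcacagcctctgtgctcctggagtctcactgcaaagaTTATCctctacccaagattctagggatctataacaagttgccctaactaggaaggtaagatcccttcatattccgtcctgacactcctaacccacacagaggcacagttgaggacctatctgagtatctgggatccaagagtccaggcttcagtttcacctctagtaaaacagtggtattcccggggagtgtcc

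The match began 45 bases before the start in Cpa3, 102 in Mcpt4, 98 in Mcpt1 and, on the opposite strand, 194 in Cma1. Mcpt4 and Mcpt1 shared an unbroken run of 53 identical bases, from 87 to 35 bases before the start in Mcpt4 and from 83 to 31 in Mcpt1. These matches describe the letters only, and binding was not measured.

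Per kilobase of exon, the order of the median levels in the untreated ureter was Cma1 (9.59 CPM per kb), Tpsb2 (8.32), Cpa3 (5.57), Mcpt4 (3.46), Kit (3.34), Fcer1a (0.759), Hdc (0.416) and Ms4a2 (0.1004). The granule proteases stood above the receptor chains and Hdc in this order. Counts were present in all 37 libraries for Cpa3, Mcpt4, Tpsb2, Kit and Hdc, in 36 for Cma1 and Fcer1a and in 34 for Ms4a2. Ms4a2 had under 10 counts in 23 libraries, Fcer1a in 12 and Mcpt4 in 11, so single values of these genes carry a large counting error.

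**Figure D1:**
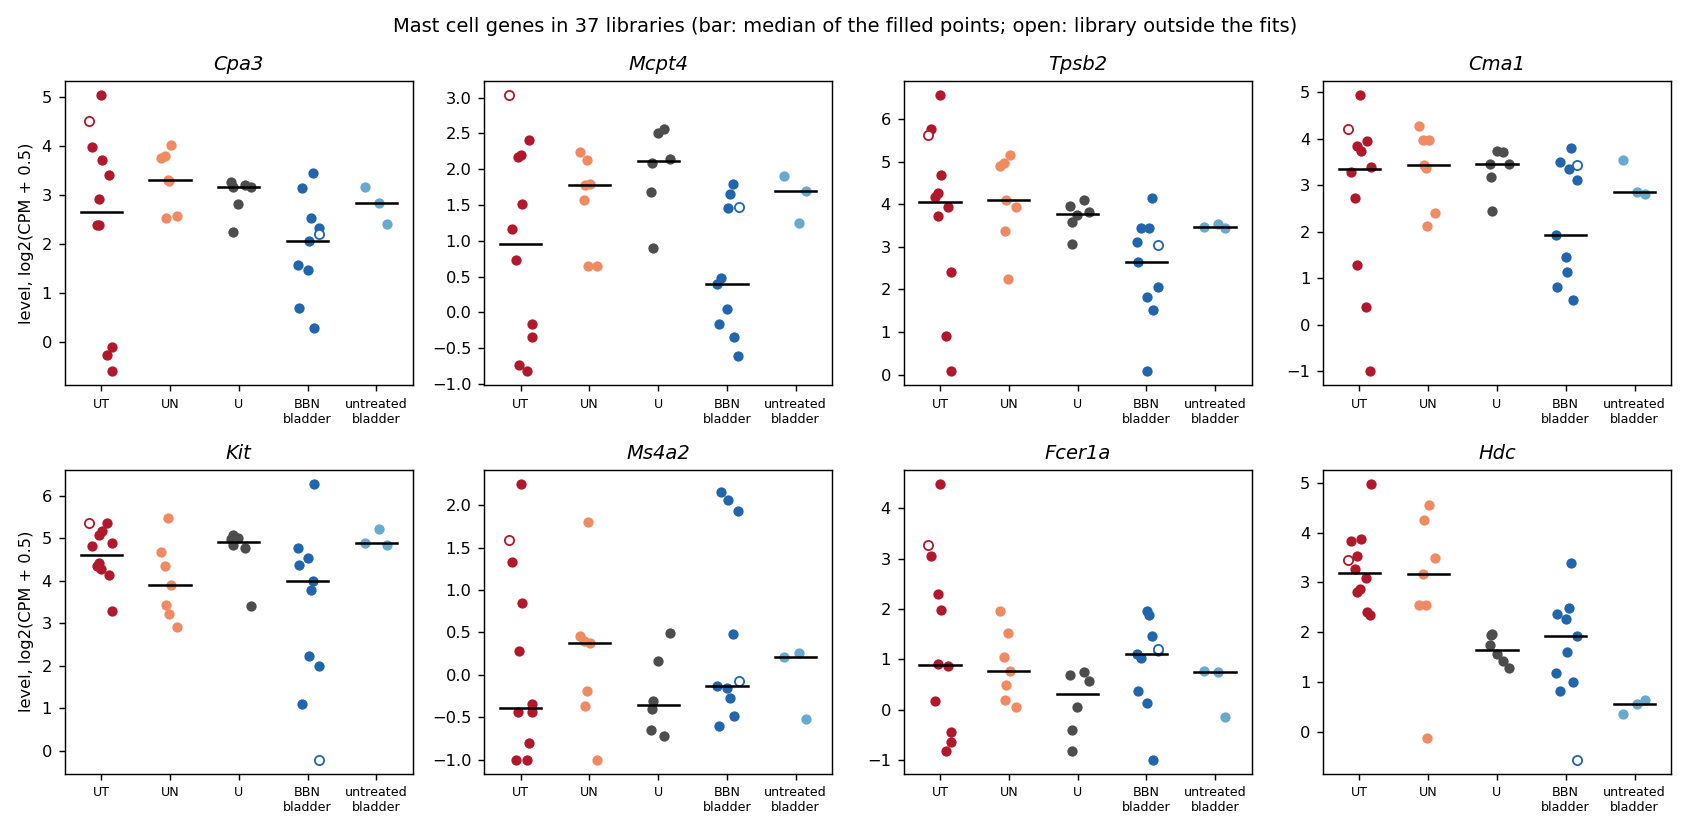
Each panel plots 1 of the 8 mast cell genes, with the level as log2(CPM + 0.5) on the vertical axis and the 5 groups on the horizontal axis; each point is a library, bars are medians of the filled points, and open points are the libraries outside the fits. Hdc is higher in every UT library (4.61 to 31.1 CPM) than in every U library (1.95 to 3.41 CPM), whereas Cpa3, Tpsb2 and Cma1 spread in UT around the levels of U.

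The 4 granule protease genes were present in every library of the untreated ureter. Cpa3 was 4.21, 8.45 and 9.15 CPM (lowest, median and highest of 6 libraries) in U, 5.30, 9.43 and 15.7 in UN and 0.159, 5.92 and 32.5 in UT. The UT libraries thus lay on both sides of all U libraries. Tpsb2 was 7.90, 13.3 and 16.6 CPM in U, 4.28, 16.7 and 35.1 in UN and 0.556, 16.2 and 94.7 in UT. Cma1 was 4.96, 10.5 and 12.9 CPM in U, 3.85, 10.3 and 18.76 in UN and 0, 9.66 and 30.4 in UT, where the 0 of UT 4 allows up to 0.238 CPM (3 counts). In both genes the medians of the 3 ureter groups were close, and the range was widest in UT.

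None of Cpa3, Tpsb2 and Cma1 passed the test in any of the 6 comparisons; calls needed an edgeR adjusted p below 0.1 together with a 2-fold difference or more, the limits of the study. Their spread differed in size: the SD of log2(CPM + 0.5) of Cpa3 was 1.96 over UT, 0.588 over UN and 0.395 over U, that of Tpsb2 was 2.02 over UT and 0.360 over U, and that of Cma1 was 1.85 over UT and 0.482 over U. The lowest 3 UT libraries for Cpa3 were UT 4 (0.159 CPM), UT 10 (0.331 CPM) and UT 2 (0.432 CPM). These are also the 3 UT libraries with the lowest adipocyte marker sums (159, 383 and 40.3 CPM, in the same order), and the part of that fat content in the result was not tested. UT 1 and UT 3 were the highest for Tpsb2, at 94.7 and 53.7 CPM.

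Mcpt4, the chymase of connective tissue mast cells, was the member protease that passed a test. It was 1.36, 3.83 and 5.43 CPM in U, 1.07, 2.92 and 4.24 in UN and 0.0661, 1.45 and 4.82 in UT. Of the 10 UT libraries 5 were below all U libraries and the others overlapped them. Mcpt4 fell by 1.26 on the log2 scale in UT against U (SE 0.61, edgeR adjusted p = 0.0938; mean 1.90 ± 1.83 CPM (SD, n = 10) against 3.72 ± 1.52 (n = 6)). The call was kept in 10 of 27 alternatives and was lost with all 11 UT libraries (log2 fold change −0.84). It was also lost with counts summed per mouse (−1.18, edgeR adjusted p = 0.2525) and with RNA integrity as a covariate (−1.21, edgeR adjusted p = 0.139). Leaving out any of UT 2, 3, 4, 5R, 5L or 10, or any U library other than U 2L, ended the call. In the same comparison 5 of 6 smooth muscle markers (median −1.67), 6 of 6 adipocyte markers (median −3.20) and 2 of 4 endothelial markers also fell, and their part in the Mcpt4 result was not tested.

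Kit was measured in every library, at 10.1, 29.8 and 33.4 CPM in U, 7.01, 14.4 and 43.7 in UN and 9.29, 24.3 and 40.3 in UT. The groups overlapped, and Kit did not pass the test in UN against U (log2 fold change −0.63, SE 0.36, edgeR adjusted p = 0.238). Without UN 9, the library with the highest Kit of the group, the difference was −1.05 (edgeR adjusted p = 0.0210) and passed. In the bladder Kit was 28.2, 29.1 and 36.9 CPM in the 3 untreated libraries and 1.66, 15.3 and 77.5 over the 9 BBN libraries. The 3 lowest of these 9 were BBN bladders 1, 3 and 4 (3.47, 4.22 and 1.66 CPM), the BBN bladders with the lowest total counts. The markers of interstitial cells of Cajal, a Kit-bearing pacemaker cell of the muscle wall, summed over 4 genes to 80.3 to 142 CPM in U, 21.8 to 297 in UN, 101 to 507 in UT, 34.7 to 340 in BBN bladder and 388 to 456 in untreated bladder. The 5 melanocyte markers summed to 4.33 to 10.7 CPM in UT, 5.67 to 31.9 in UN, 4.95 to 6.80 in U, 7.86 to 50.6 in BBN bladder and 5.10 to 6.67 in untreated bladder. The melanocyte sums were highest in BBN bladders 1, 3 and 4 (26.25, 50.6 and 20.9 CPM) and in UN 6. UN 6 had an RNA integrity number under 5. The part of these cells, of depth and of RNA integrity in the Kit level was not tested.

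Of the chains of the IgE receptor, Fcer1a differed between groups and Ms4a2 did not pass a test. Fcer1a was 0.0620, 0.758 and 1.17 CPM in U, 0.534, 1.21 and 3.36 in UN and 0.0661, 1.35 and 21.97 in UT. Of the 10 UT libraries 6 were above all U libraries, led by UT 1 at 21.97 and UT 3 at 7.79 CPM. Fcer1a rose by 2.33 on the log2 scale in UT against U (SE 0.96, edgeR adjusted p = 0.0496; mean 4.14 ± 6.73 CPM (SD, n = 10) against 0.686 ± 0.469 (n = 6)). Without UT 1 the rise was 1.29 and did not pass (edgeR adjusted p = 0.191), nor did it with counts summed per mouse (2.36, edgeR adjusted p = 0.188) or under limma-trend (0.98, limma adjusted p = 0.330).

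Ms4a2 was 0.106, 0.282 and 0.911 CPM in U, 0, 0.803 and 2.995 in UN and 0, 0.264 and 4.27 in UT, with overlap between all ureter groups. The difference was 1.08 (SE 1.08) in UN against U and 2.26 (SE 1.44, edgeR adjusted p = 0.304) in BBN against untreated bladder, and neither passed; the latter was 0.97 under limma-trend and 1.46 with column totals. The bladder difference lay in BBN bladders 1, 3 and 4, the BBN bladders with the lowest total counts, at 3.31, 3.65 and 3.96 CPM, and the other 6 had at most 0.897 CPM. The highest UN value was in UN 6, whose RNA integrity number was under 5. Without libraries of RNA integrity under 5 the difference in UN against U was −0.034. The part of depth and RNA integrity in these values was not tested. The 2 basophil proteases Mcpt8 and Prss34 reached at most 1.37 and 0.159 CPM in UT, 0.202 and 0.0914 in UN and 0.160 and 0.391 in U. In the bladder they reached 3.95 and 0.205 CPM with BBN, and 0 and 0.209 without. The highest Mcpt8 of UT was thus as high as the UT median of Fcer1a and above that of Ms4a2, and the part of basophils in these levels was not tested. The other 4 genes of that list, Il3ra, Cd200r3, Itga2 and Gata1, are also expressed by other cells, and the 6 summed to 25.9 to 178 CPM in UT, 10.4 to 58.6 in UN, 9.60 to 16.2 in U, 42.3 to 104 in BBN bladder and 79.7 to 88.9 in untreated bladder.

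Hdc rose in both BBN-treated ureter groups and in the BBN-treated bladder. It was 1.95, 2.66 and 3.41 CPM in U, 0.428, 8.48 and 22.97 in UN and 4.61, 8.63 and 31.1 in UT. All 10 UT libraries, and all UN libraries other than UN 6 at 0.428 CPM, were above the highest U library. The rise was 1.71 on the log2 scale in UT against U (SE 0.51, edgeR adjusted p = 0.00922; mean 10.99 ± 7.82 CPM (SD, n = 10) against 2.71 ± 0.611 (n = 6)) and 1.81 in UN against U (SE 0.54, edgeR adjusted p = 0.0295; mean 10.3 ± 7.96 CPM (n = 7)). Hdc did not pass in UT against UN (SE of the log2 fold change 0.45, edgeR adjusted p = 0.903). The call in UT against U held in all 27 alternatives. In UN against U it held in 22 of 24 and was lost with counts summed per mouse (1.82, edgeR adjusted p = 0.253) and under limma-trend (1.21, limma adjusted p = 0.161).

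In the bladder Hdc was 0.782, 0.976 and 1.07 CPM in the 3 untreated libraries and 1.28, 3.31 and 9.96 over the 9 BBN libraries, without overlap. The rise was 2.23 on the log2 scale (SE 0.65, edgeR adjusted p = 0.0474; mean 3.82 ± 2.69 CPM (SD, n = 9) against 0.941 ± 0.145 (n = 3)). Leaving out any of the 3 untreated bladders ended the call (2.23, 2.29 and 2.09 without bladder 1, 2 and 3), as did adding the bladder of BBN mouse 6 (2.08) and scaling by column totals (2.02). The untreated ureter was also above the untreated bladder in Hdc, without overlap, by 1.83 (SE 0.69, edgeR adjusted p = 0.0834); leaving out any of the 3 untreated bladders, or U 1R, 1L, 2L or 3R, ended that call. With the untreated libraries fitted alone the difference was 1.90 (edgeR adjusted p = 0.000105), and with the mouse as a block in that fit 1.89 (edgeR adjusted p = 0.000234). The BBN effect on Hdc in the ureter (UN against U) minus that in the bladder was −0.40 (SE 0.77, edgeR adjusted p = 0.870).

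Neutrophil markers, measured because neutrophils also make Hdc, were also higher in the BBN groups. The list of 8, of which 7 are in the table, summed to 25.2 to 41.6 CPM in U, 68.3 to 547 in UN, 49.8 to 810 in UT, 14.8 to 18.6 in untreated bladder and 18.5 to 247 in BBN bladder. Of the 6 tested, 5 rose in UN and 5 in UT against U, and 3 rose in the BBN bladder, beside 11.9%, 18.6% and 7.08% of all genes. In U against untreated bladder, where Hdc was called, 0 of the 6 passed (7.04% of all genes were higher; median of the 6 1.71). The highest neutrophil sums of UT, UN and BBN bladder were all in mouse 2, whose Hdc was the highest of UT (31.1 CPM) and of BBN bladder (9.96 CPM) and the second highest of UN (18.6 CPM). Other libraries went another way: UN 1 had the highest Hdc of UN at a neutrophil sum of 89.7 CPM, and UT 1 had 6.80 CPM of Hdc at a sum of 627 CPM. The part of neutrophils in the Hdc result was not tested.

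**Figure D2:**
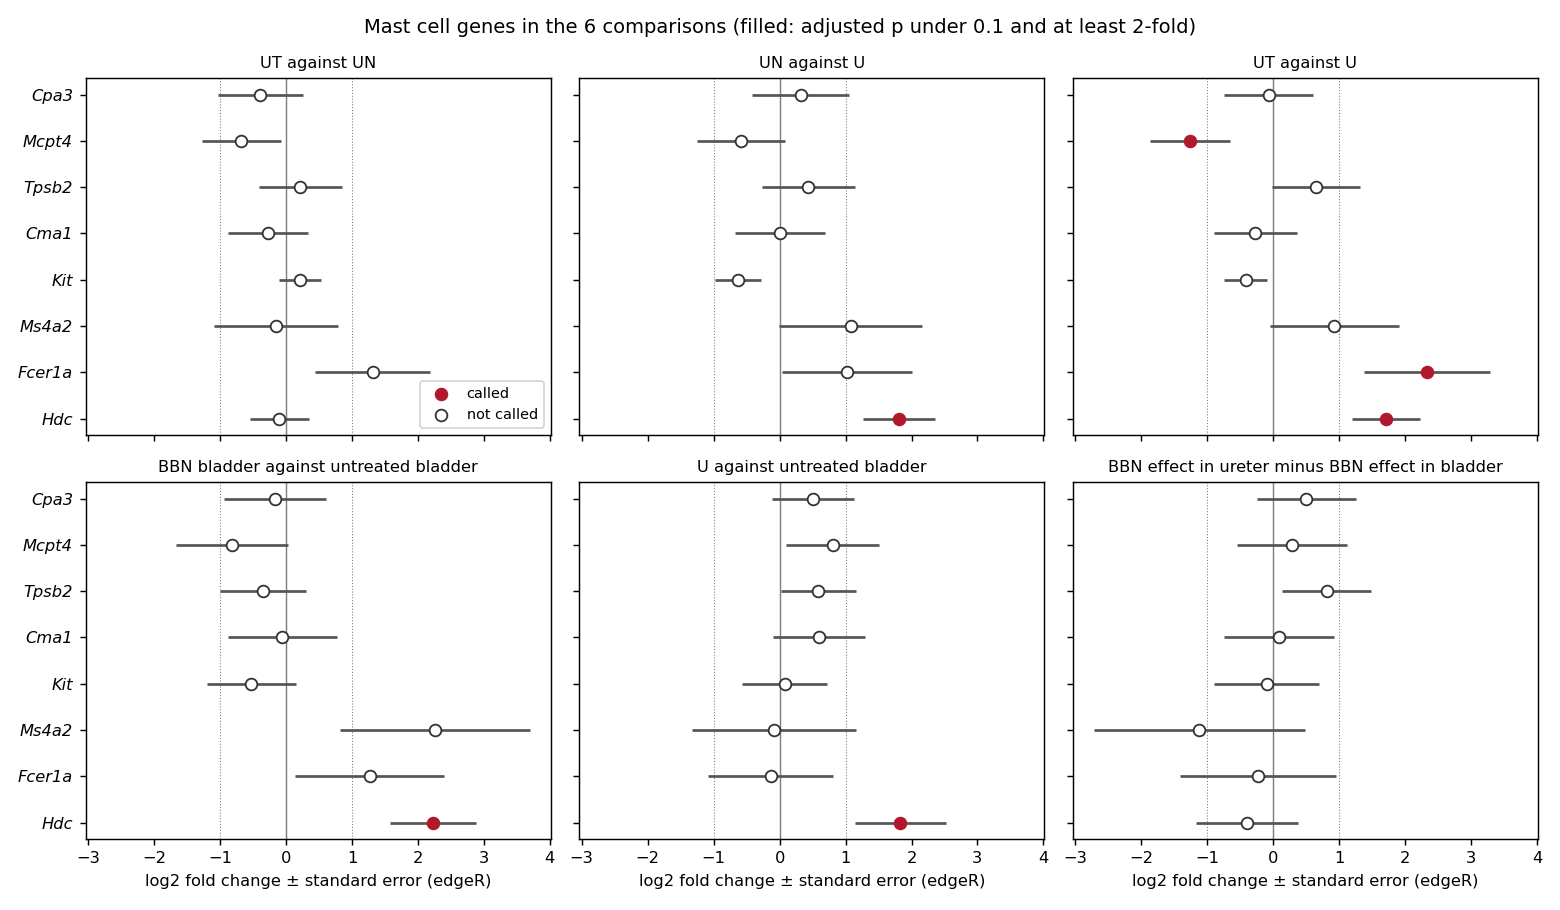
Each of the 6 panels plots 1 comparison, with the log2 fold change of the 8 mast cell genes on the horizontal axis (bars are the edgeR standard error, dotted lines mark a 2-fold change) and the genes on the vertical axis. Filled points passed the test: Hdc in UN against U (1.81), UT against U (1.71), BBN against untreated bladder (2.23) and U against untreated bladder (1.83), Fcer1a (2.33) and Mcpt4 (−1.26) in UT against U.

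Read by comparison, UT against UN asked whether the cancerous side differed from the other side of treated mice, and 0 of 8 members passed the edgeR test, with 0 at an unadjusted p under 0.05 and 0 called by limma-trend or DESeq2; 2.8% of all genes tested were called higher and 7.97% lower. Differences ran from −0.68 for Mcpt4 to 1.31 for Fcer1a (SE 0.87, edgeR adjusted p = 0.308), with a median of −0.12 against −0.0075 over all genes. In UN against U, 1 member was higher and 0 lower, against 11.9% and 1.65% of all genes, with a median of 0.38 against 0.08. In UT against U, 2 were higher and 1 lower, against 18.6% and 14.4% of all genes, with a median of 0.29 against 0.08. The members' counts, out of 8, are near these background shares and are no result about the members as a group. Both comparisons use the same 6 U libraries, so they are not independent of each other.

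In the bladder 1 member was higher and 0 lower with BBN, against 7.08% and 5.47% of all genes, and the median was −0.11 against 0.23. In U against untreated bladder 1 was higher and 0 lower, against 7.04% and 8.73%, with a median of 0.55 against −0.013. For the difference between the BBN effects of the 2 organs 0 of 8 passed by edgeR, with 0 at an unadjusted p under 0.05 and 0 called by limma-trend or DESeq2, against 1.65% higher and 0.682% lower, and the median was −0.0049 against −0.12. Scaling by column totals in place of TMM moved the median of all genes to 0.22, 0.18 and 0.41 in the 3 ureter comparisons, −0.0053 in the bladder, −0.32 between the organs and 0.20 for the difference of effects. The calls over all genes were then 338 higher and 279 lower in UT against UN (438 and 1245 with TMM), 4032 and 1559 in UT against U (2898 and 2246), 961 and 2093 in U against untreated bladder (1321 and 1637) and 337 and 61 for the difference of effects (309 and 128).

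In 7 mice both ureters were sequenced, 1 as UT and 1 as UN, and in 6 of them both libraries entered the fits. In these 6 mice Cpa3, Mcpt4, Tpsb2 and Cma1 were each lower on the UT side in mice 2, 4 and 7 and higher on it in the other 3 mice. Cpa3 was 5.30 CPM in UN 2 and 0.432 in UT 2, and 13.4 in UN 4 and 0.159 in UT 4, whereas it was 15.7 in UN 1 and 32.5 in UT 1. The direction thus differed between mice and went together across the 4 proteases. Kit was higher on the UT side in 5 mice and lower in mouse 2, Hdc was higher in 4, and Fcer1a was higher in 2. In mouse 9, whose UT library was outside the fits, the 4 proteases were higher on the UT side (Cpa3 22.3 CPM in UT 9 and 9.43 in UN 9), as were Hdc (10.4 and 5.31) and Fcer1a (9.18 and 0.898), and Kit was lower (40.3 and 43.7). No member was called in the fit with the mouse as a block.

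**Figure D3:**
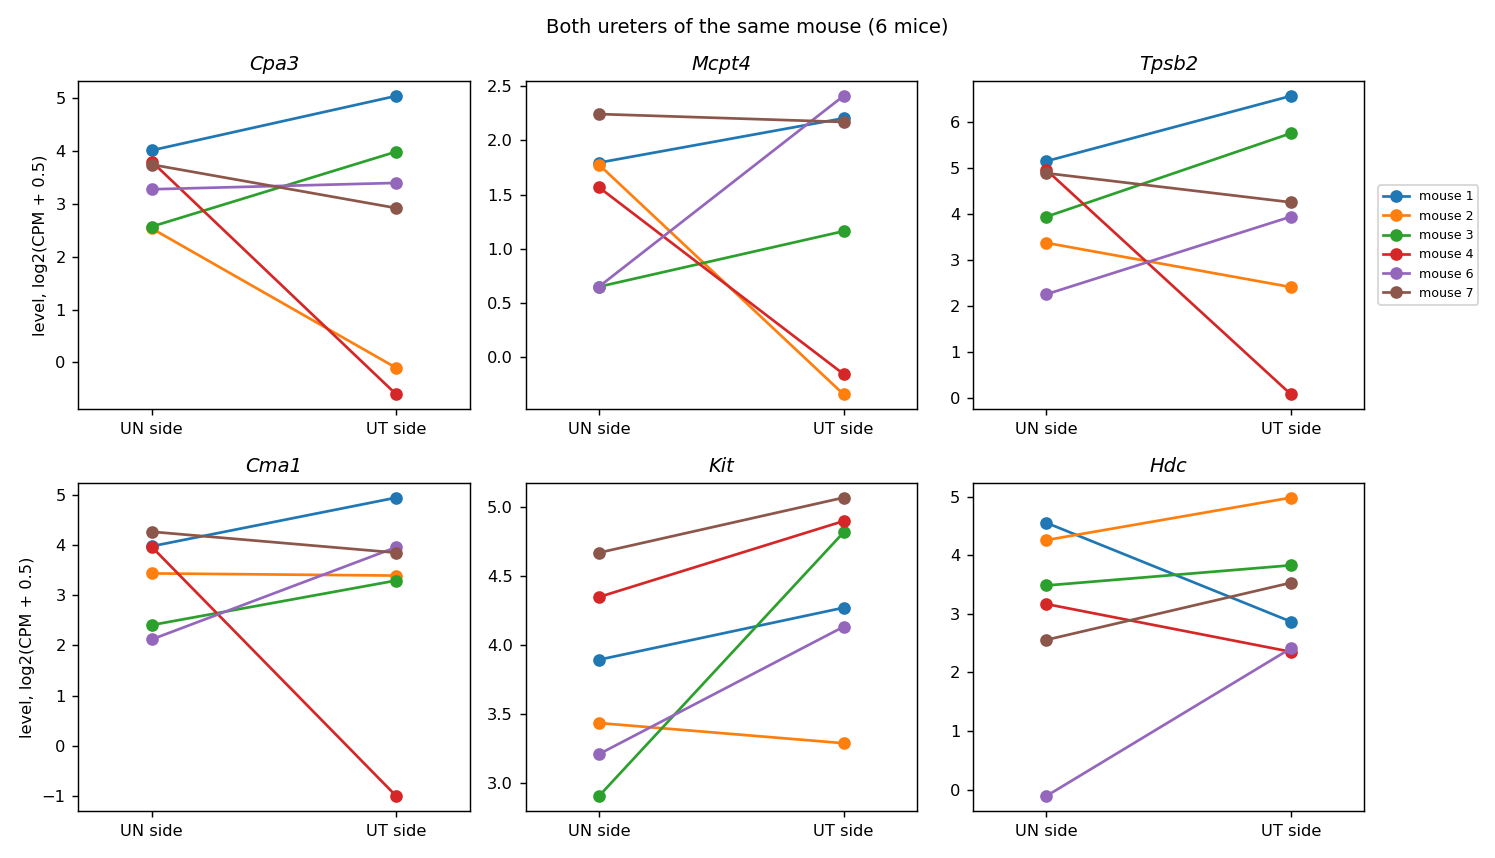
Each panel plots 1 gene, with the UN and UT sides of a mouse on the horizontal axis and the level as log2(CPM + 0.5) on the vertical axis; each line is 1 of the 6 mice with both libraries in the fits. The lines of mice 2, 4 and 7 go down from UN to UT in Cpa3, Mcpt4, Tpsb2 and Cma1, and those of the other 3 mice go up.

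Further mast cell proteases that passed tests between the ureter groups were Mcpt1, Mcpt2 and Tpsab1. Of 7 further protease genes, 3 had enough counts to be tested in the ureter: the mucosal chymases Mcpt1 and Mcpt2 and the tryptase Tpsab1. Tpsg1, Mcpt9, Cma2 and Ctsg did not. All 3 passed as higher in UN and in UT against U, but Mcpt1 and Mcpt2 passed the filter on low counts through the groups where they are high, so that count is no result about the list. Tpsab1 was 1.83, 2.33 and 3.62 CPM in U, 3.11, 21.6 and 44.8 in UN and 2.45, 32.7 and 240 in UT. Of the UT libraries 8 and of the UN libraries 6 were above all U libraries. The rise was 4.26 on the log2 scale in UT (SE 0.90, edgeR adjusted p = 0.000659) and 2.73 in UN (SE 0.86, edgeR adjusted p = 0.0393); with counts summed per mouse the first was kept (edgeR adjusted p = 0.0294) and the second lost (edgeR adjusted p = 0.291). UT and UN differed by 1.52 and did not pass (edgeR adjusted p = 0.159).

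Mcpt1 and Mcpt2, made by mast cells within inflamed epithelium, were almost without counts in the untreated ureter: 1 count of Mcpt1 and 0 of Mcpt2 in the 6 U libraries together. Mcpt1 was 87.3 CPM in UT 1, 54.7 in UT 3, 11.96 in UT 2, 8.12 in UT 5L and 6.66 in UT 8, and at most 0.779 in the other 5 UT libraries. In UN it was 6.05 CPM in UN 7 and at most 0.856 in the others. Mcpt2 was highest in UT 1 (71.5 CPM) and UT 3 (24.5 CPM), and in UN 7 (5.45 CPM) among UN. The mucosal chymases were thus high in part of the UT libraries rather than in all.

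The ratio of summed Mcpt1 CPM was 1539 for UT over U (95% exact interval 276 to 60805) and 114 for UN over U (19.9 to 4527). Mcpt2 was at least 359-fold higher in UT and at least 38.3-fold higher in UN than the floor of 3 counts over the 6 U libraries, 0.0321 CPM. UT 1 held 1105 of the 2269 Mcpt1 counts of UT and UN 7 held 90 of the 100 of UN. Without these libraries the Mcpt1 ratios were 869 for UT (156 to 34365) and 13.9 for UN (1.97 to 601), and Mcpt2 was at least 151-fold and 16.4-fold above the floor. Intervals and floors cover counting error only. Mcpt1 and Mcpt2 passed the test in UT against U (edgeR adjusted p = 0.00111 and 0.00344), in all 27 alternatives. In UN against U they passed (edgeR adjusted p = 0.0970 and 0.0892) in 10 of 24 alternatives each, and not without UN 7 (edgeR adjusted p = 0.424 and 0.220), UN 3, UN 6 or any U library. Mcpt1 also rose in UT against UN by 4.04 (SE 1.35, edgeR adjusted p = 0.0619), but the fit with the mouse as a block gave 4.21 (edgeR adjusted p = 0.788) and the call was lost, as it was with UT and UN fitted alone (edgeR adjusted p = 0.148) and without UN 2, UN 6 or UN 9.

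**Figure D4:**
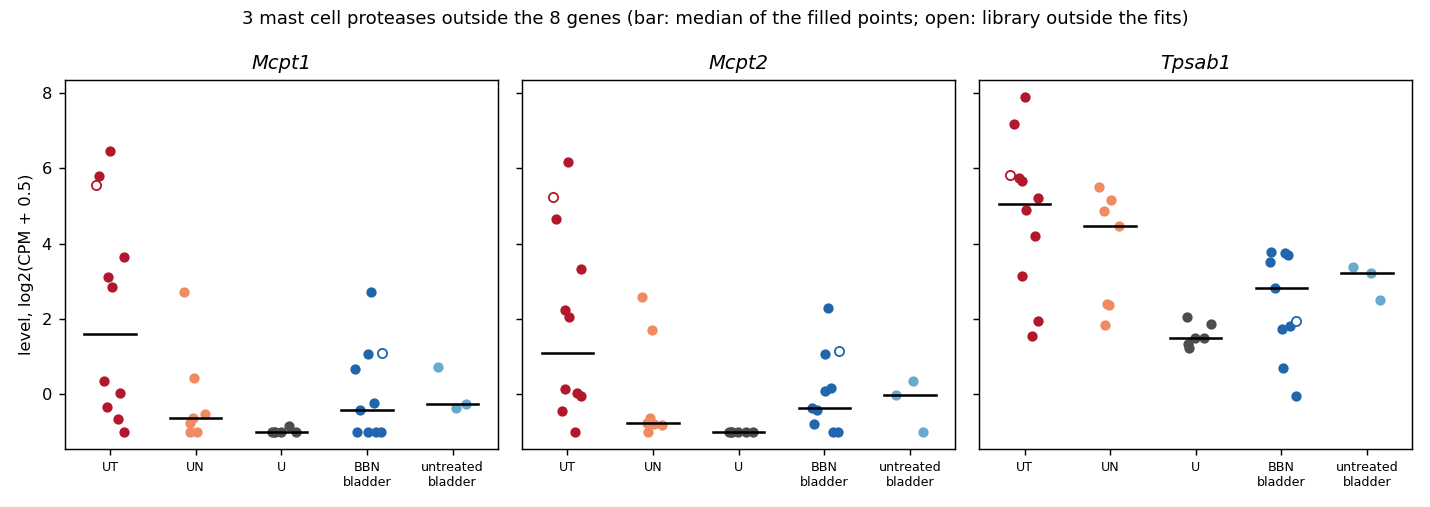
The 3 panels plot Mcpt1, Mcpt2 and Tpsab1, with the level as log2(CPM + 0.5) on the vertical axis and the 5 groups on the horizontal axis; points are libraries, bars are medians of the filled points and open points are libraries outside the fits. U libraries sit at 0 to 0.0532 CPM of Mcpt1 while UT libraries reach 87.3, and Tpsab1 runs from 1.83 to 3.62 CPM in U and up to 240 in UT.

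In the untreated bladder Mcpt1 was 0.279, 0.333 and 1.14 CPM and Tpsab1 was 5.13, 8.78 and 9.99 CPM, all above every U library. Mcpt2 was 0.767, 0 and 0.481 CPM (11, 0 and 8 counts) in untreated bladder 1, 2 and 3, so untreated bladder 2 was at 0 like the U libraries. Mcpt1 and Mcpt2 passed the test as lower in U than in untreated bladder (edgeR adjusted p = 0.0757 and 0.0690), in 6 and 7 of 17 alternatives; leaving out any U library or untreated bladder ended the calls, except U 2R for Mcpt1 and untreated bladder 2 for Mcpt2. Tpsab1 did not (−1.33, edgeR adjusted p = 0.213), but passed with the untreated libraries fitted alone (−1.26, edgeR adjusted p = 0.00123), as it did with the mouse as a block in that fit (−1.22, edgeR adjusted p = 0.000913), and without libraries of RNA integrity under 5. Tpsab1 did not pass in BBN against untreated bladder (SE 0.69). The BBN effect on Tpsab1 was larger in the ureter than in the bladder by 2.77 (SE 0.81, edgeR adjusted p = 0.0937), a call kept in 15 of 34 alternatives and lost under limma-trend (2.73, limma adjusted p = 0.176), with the mouse as a random effect in limma-trend (2.71, limma adjusted p = 0.210), with RLE normalization, with no filter on low counts and without any U library, any untreated bladder, UN 1, 3, 4 or 7 or BBN bladder 7 or 10.

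Of 21 other genes linked to mast cells, 9 rose and 2 fell in UT against U, beside 18.6% and 14.4% of all genes, and the median was 0.91 against 0.08 over all genes. The 9 include Rgs13, which passed the filter on low counts mainly through the treated groups, so that count is no result about the list. Hpgds, the prostaglandin D2 synthase of hematopoietic cells, rose by 2.70 (SE 0.38, edgeR adjusted p = 2.59e-05; 30.1 ± 19.0 CPM (SD, n = 10) against 3.69 ± 0.760 (n = 6)), and every UT library was above every U library. Lilrb4a, an inhibitory receptor of mast and myeloid cells, rose by 2.42 (SE 0.43). Maob, a monoamine oxidase, fell by 3.02 and Ltc4s, the leukotriene C4 synthase, by 1.72. The 6 adipocyte markers also fell in UT against U, 6 of 6 with a median of −3.20, and 3 of 6 fell in UT against UN (median −2.01); their part in these results was not tested. In UT against UN Hpgds was higher by 1.47 and Maob and Ltc4s were lower by −1.92 and −1.78, the list having 1 call up and 2 down, beside 2.8% and 7.97% of all genes, and a median of 0.05 against −0.0075. With UT and UN fitted alone 1 of all genes tested was called by edgeR, and with the mouse as a block in that fit 0 (618 at an unadjusted p under 0.05), so no call of that comparison was kept.

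In UN against U 6 of the 21 rose and 0 fell, beside 11.9% and 1.65% of all genes (median 0.55 against 0.08). Mrgprb2, the receptor for basic secretagogues on connective tissue mast cells, rose by 2.29 (SE 0.71) from a median of 0.563 to 2.37 CPM, with 6 of 7 UN libraries above all U, a call lost without libraries of RNA integrity under 5. Of these 6 genes Mrgprb2 and Rgs13 passed the filter on low counts mainly through the treated groups. A list count that holds either gene is no result about the list. In the BBN bladder 4 rose and 2 fell, beside 7.08% and 5.47% of all genes (median 1.36 against 0.23). Mrgprb2 was 0.662, 0.666 and 0.697 CPM in the untreated bladders and 1.89, 4.64 and 14.9 with BBN, a rise of 3.81 (SE 0.81, edgeR adjusted p = 0.00916) without overlap. Srgn, the core protein of granule proteoglycans, rose by 2.06, a call lost without any 1 of the 3 untreated bladders. Gata2, a transcription factor of mast cells and other lineages, fell by 1.78 (lost without untreated bladder 3) and Rab27b, which urothelium also uses for vesicle transport, by 2.27. The 8 urothelial markers summed to 15534 to 16260 CPM in untreated bladder and 665 to 12082 with BBN, and their part was not tested. Between U and untreated bladder 2 of the 21 were higher and 3 lower, beside 7.04% and 8.73% of all genes (median 0.25 against −0.013), and 0 passed for the difference of the organs' BBN effects, beside 1.65% higher and 0.682% lower of all genes (median −0.40 against −0.12).

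Of 13 genes of the cascade below the IgE receptor, many of which other leukocytes also use, 10 rose in UT against U, 5 in UN against U and 1 each in UT against UN and in BBN against untreated bladder, and 0 fell in those 4 comparisons. The shares of all genes that rose were 18.6%, 11.9%, 2.8% and 7.08%, in the same order. The medians were 1.70, 1.29, 0.38 and 0.71, in that order, against 0.08, 0.08, −0.0075 and 0.23 over all genes. Fcer1g, the γ chain shared with Fc receptors of macrophages, rose by 2.32 in UN against U (SE 0.50, edgeR adjusted p = 0.00492) without overlap. In UT against U Plcg2, a phospholipase of the cascade, rose by 2.35 and the kinase Lyn by 1.09, each without overlap. The pan-leukocyte gene Ptprc was 22.3 to 40.7 CPM in U, 25.3 to 130 in UN and 18.5 to 265 in UT, and the macrophage list summed to 345 to 547, 239 to 2778 and 496 to 1963 CPM. B cells use the same kinases, and the 5 B and plasma cell markers summed to 10.3 to 65.7 CPM in U, 177 to 921 in UN and 35.6 to 2328 in UT, with 5 of 5 higher in UT against U (median 4.22) and 3 of 5 in UN against U. Of 5 T cell markers 4 rose in UT against U and 0 passed in UN against U. The part of other leukocytes was not tested. Between U and untreated bladder 0 were higher and 1, Plcg2, lower, beside 8.73% of all genes lower (median 0.22 against −0.013).

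Among 13 growth factors and cytokines that act on mast cells, 8 could be tested in the ureter, and Il3, Il5, Il9, Il10 and Il13 had too few counts. Il33, the alarmin that mast cells sense through Il1rl1, was at a median of 25.0 CPM in U, 76.8 in UN, 370 in UT, 12.96 in untreated bladder and 543 in BBN bladder. It rose by 3.002 in UN (SE 0.63, edgeR adjusted p = 0.00425), by 3.83 in UT (SE 0.64, edgeR adjusted p = 9.44e-05) and by 4.97 in the BBN bladder (SE 0.79, edgeR adjusted p = 0.00139). Csf2, the growth factor GM-CSF, rose in the same 3 comparisons, by 3.31, 3.71 and 4.27, a call lost in UN under limma-trend or without UN 3 and in the bladder without untreated bladder 1 or 2. Csf2 was at medians of 0.163 CPM in U and 0.0697 in untreated bladder and passed the filter on low counts through groups where it is higher. With counts summed per mouse, where U has 3 samples, the calls in UN against U of Il33, Csf2, Mrgprb2, Lilrb4a, Fcer1g, Syk, Aoc1 and F2rl1 were lost, while that of Il33 in UT against U was kept (edgeR adjusted p = 0.00961). Kitl, the ligand of Kit, was 48.0 to 73.8 CPM in U and 24.8 to 91.7 in UT, and the difference of −0.22 did not pass (SE 0.22, edgeR adjusted p = 0.438) and took the other sign under column totals.

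In that list 2 genes rose in UN, 3 in UT (with Tgfb1, by 1.04, a call lost without UT 2, UT 10, U 2R or U 2L, with counts summed per mouse, with a covariate for RNA integrity or for the code range, and under limma-trend) and 2 in the BBN bladder, and 0 fell, beside 11.9%, 18.6% and 7.08% of all genes higher; the medians were 1.06, 1.09 and 1.15 against 0.08, 0.08 and 0.23 over all genes. The counts of these 3 comparisons hold Csf2, so they are no result about the list. In UT against UN, U against untreated bladder and the difference of the organs' BBN effects 0 passed, beside 2.8%, 7.04% and 1.65% of all genes higher and 7.97%, 8.73% and 0.682% lower. The medians there were −0.12, 1.06 and −0.45 against −0.0075, −0.013 and −0.12 over all genes.

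Genes that break down or sense histamine moved in both directions. Hnmt, the methyltransferase that inactivates histamine inside cells, was 50.8, 60.3 and 62.8 CPM in U, 11.02, 27.8 and 46.1 in UN and 2.31, 11.3 and 30.5 in UT. It fell by 2.59 in UT against U (SE 0.46, edgeR adjusted p = 0.000140), where the groups did not overlap, and by 1.54 in UT against UN (SE 0.44, edgeR adjusted p = 0.0422). The latter call was lost with all 11 UT libraries (−1.25, edgeR adjusted p = 0.113) and with the mouse as a block (−1.01, edgeR adjusted p = 0.7885). It was also lost with counts summed per mouse, UT and UN fitted alone, column totals, and RNA integrity as a covariate or limit. Aoc1, which oxidizes histamine outside cells, rose in UN, in UT and in the BBN bladder, from a median of 0 CPM in U to 0.428 in UN and 2.29 in UT, and from 0.0666 to 1.99 in the bladder. The call of Aoc1 in UN was lost under limma-trend, without libraries of RNA integrity under 5, without UN 3 and without any U library other than U 3L, and that in the bladder without untreated bladder 2 or 3. Aoc1 passed the filter on low counts through the groups where it is high, so a list count that holds it is no result about the list. F2rl1, the receptor that tryptase cleaves, rose by 3.17 in UT and 1.95 in UN against U, the latter call lost under limma-trend. Of 7 listed genes, 5 were tested in the ureter and in BBN against untreated bladder and 6 in U against untreated bladder. In UT against U 2 rose and 1 fell (18.6% and 14.4% of all genes), in UN against U 2 rose (11.9%), and in UT against UN 1 fell (7.97%), with medians of 1.25, 0.43 and 0.82 against 0.08, 0.08 and −0.0075 over all genes. In BBN against untreated bladder 1 rose and 1 fell (7.08% and 5.47%), and in U against untreated bladder 1 was higher and 1 lower (7.04% and 8.73%), with medians of 0.66 and −0.33 against 0.23 and −0.013. In the bladder with BBN the gene that fell was the histamine receptor Hrh3, by 4.89, which passed the filter through the untreated bladder, where it is high, and Hnmt was higher in U than in untreated bladder by 2.77, where 6 of 6 adipocyte markers were also higher (median 6.57). The part of fat content in the Hnmt differences was not tested. For the difference of the organs' BBN effects 0 of 6 histamine genes and 0 of 13 IgE cascade genes passed, beside 1.65% higher and 0.682% lower of all genes.

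Likeness of the members' levels over libraries depended on the group. Over all 37 libraries Spearman's rho of log2(CPM + 0.5) was 0.86 for Cpa3 and Tpsb2, 0.80 for Cpa3 and Cma1, 0.79 for Mcpt4 and Cma1, and 0.72 for Ms4a2 and Fcer1a. Kit had rho between −0.29 and 0.18 with the other genes shown. Within the 11 UT libraries Cpa3 and Tpsb2 had rho 0.96 and Cpa3 and Mcpt4 0.81. Fcer1a had rho 0.80 with Mcpt2 in UT. Within the 6 U libraries Cpa3 had rho 0.77 with Tpsb2 but 0.20 with Mcpt4 and 0.14 with Cma1. Kit had rho 0.54 with Cpa3, 0.54 with Tpsb2, 0.57 with Cma1 and 0.86 with Mcpt4 within the 7 UN libraries, and −0.65 with Cpa3 and −0.61 with Cma1 within the 10 BBN bladders. The points share depth, tissue content and, for the same mouse, the animal, so these values describe the libraries only.

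**Figure D5:**
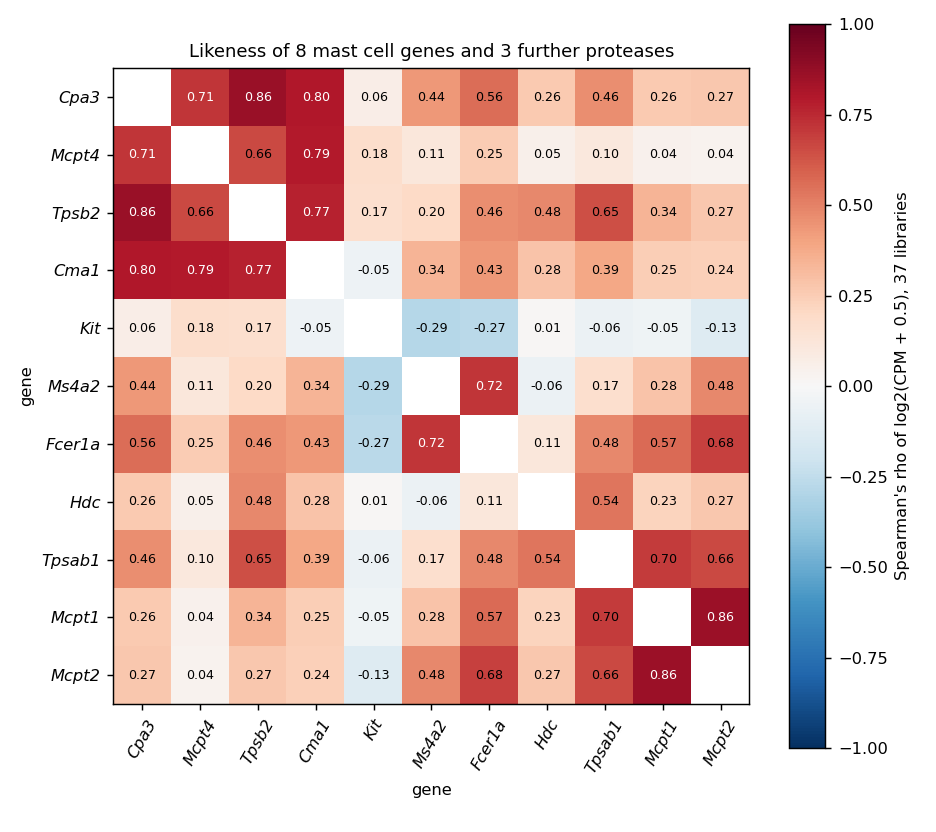
Both axes list the 8 mast cell genes and Tpsab1, Mcpt1 and Mcpt2; the colour and the figure in each cell give Spearman's rho of log2(CPM + 0.5) over 37 libraries, with red for positive and blue for negative values. The block of Cpa3, Mcpt4, Tpsb2 and Cma1 is red, with 0.86 for Cpa3 and Tpsb2, while the row of Kit lies between −0.29 and 0.18.

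Among 16012 genes, the 8 members included, the others whose level over the 37 libraries was most like the members' mean z-score were Rgs18 (rho 0.86), Arhgap4 (0.85), Ccr3 (0.81), Sfrp4 (0.81), Il27ra (0.81), Arhgef6 (0.80), Tmem100 (0.77), Il16 (0.77), Gapt (0.77) and Rassf4 (0.76). Ptprc was at rank 63 (0.69) and Il1rl1, the Il33 receptor of mast cells, at rank 82 (0.68). Of other genes linked to mast cells, Tph1, Mrgprb1 and Mitf were at ranks 929 (0.52), 1186 (0.49) and 1721 (0.44). Gata2, Mrgprb2, Slc18a2 and Hpgds were at ranks 5862 (0.15), 10375 (−0.069), 11591 (−0.12) and 12698 (−0.16). Tpsab1 was at rank 1143 (0.50), and Mcpt1 and Mcpt2 were at ranks 3452 and 3380. Kitl was at rank 2655 (0.37) and Il33 at 12440 (−0.15).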

How the data were processed

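RNA was extracted with miRNeasy, made into libraries with SMARTer HT and Nextera XT and sequenced on a DNBSEQ-G400RS, per the study's methods. The authors deposited estimated counts per gene symbol, of which 21.1% of nonzero values were fractional; the submitters' processing notes name GRCm38/mm10, TopHat2 2.1.1 and Cuffdiff 2.2.1, with no roles given. Counts were rounded for the fits, and CPM is the deposited count, unrounded, over the column total. Columns without a sample numbered 0. No 2 libraries agreed within sampling noise (smallest chi-square over degrees of freedom within groups 7.71).

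edgeR 4.0.16 quasi-likelihood tests (R 4.3.3, TMM, filterByExpr, Benjamini-Hochberg) were fitted to UT, UN and U, to the 2 bladder groups, and to UN, U and both bladder groups. A gene was called at an adjusted p under 0.1 and at least 2-fold, the study's thresholds. The code was tested on simulated data. UT 9 was left out, as in the study's drawn set, and the bladder of BBN mouse 6 because its library name carries T. p-values measure the spread between these libraries. The 8 members, the gene lists and the markers were chosen with earlier results of these data known. Genes named are the 8 members, list genes as examples of the most and least changed, and the 10 genes most like the members' mean z-score among those with 1 CPM in 6 libraries; Mcpt1, Mcpt2 and Tpsab1 are the tested genes of the protease list in the ureter.

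UT and UN libraries of 1 number come from the same mouse by the labels. Their deviations from the group means had correlations of −0.044, −0.049, 0.018, 0.051, 0.12 and −0.23 in the 6 mice, and the consensus correlation with the mouse as a random effect was −0.06. Alternatives were DESeq2 1.42.0, limma-trend (limma 3.58.1), other normalizations and filters, RNA integrity as a covariate or limit (values from the study's supplement), range of library codes, counts summed per mouse, the mouse as a block, the 2 left-out libraries added, and each library left out in turn. Scaling by column totals and a fit of the untreated libraries alone were added after seeing the data. Python 3.11.15 with pandas 2.3.3, scipy 1.17.1 and matplotlib 3.10.9 was used for summaries. Promoters are from RefSeq; Tpsb2 had no entry.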

Additional observations from a re-analysis of the deposited data

Results flagged for a closer look

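Libraries that stood apart within their group were looked for in 43 sets of 1 gene in 1 group (Dixon's test for groups of 4 to 10 libraries), and 4 were past the limit, where chance gives about 1 in 20. Kit was 10.1 CPM in U 3L, the lowest of 6 U libraries. Hdc was 0.428 CPM in UN 6, the lowest of 7 UN libraries and past the limit only in the fourth digit (gap over range 0.5681), and UN 6 is the UN library with an RNA integrity number under 5. Mcpt1 was 6.05 CPM in UN 7, the highest of 7. The fourth, Mcpt1 at 0.0532 CPM in U 2R, is 1 count with the other U libraries at 0, where any count would pass the limit, so 3 of the other 42 sets were past it. The causes were not tested.

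The BBN effect on Tpsab1 differed between the ureter (UN against U) and the bladder by 2.77 on the log2 scale (SE 0.81, edgeR adjusted p = 0.0937), by a test of the difference itself. The call was kept in 15 of 34 alternatives and was lost without any U library or any untreated bladder.

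UT 9, a library labelled as cancerous ureter but outside the fits, was above the highest U library in all 8 members: Cpa3 was 22.3 CPM, Mcpt4 7.71, Tpsb2 48.9, Cma1 18.0, Kit 40.3, Ms4a2 2.50, Fcer1a 9.18 and Hdc 10.4 CPM. Its adipocyte markers summed to 17728 CPM, against 40.3 to 10070 in the fitted UT libraries. Its urothelial markers summed to 562 CPM, against 1920 to 6968. The part of tissue content was not tested. Of the further proteases, Tpsab1 at 56.3, Mcpt1 at 46.5 and Mcpt2 at 37.2 CPM were also above every U library in UT 9. Tpsg1, at 0.184 CPM, was not. The bladder of BBN mouse 6, also outside the fits, was above the highest untreated bladder in Fcer1a (1.81 against 1.20 CPM), Mcpt1 (1.63 against 1.14 CPM) and Mcpt2 (1.72 against 0.767 CPM). It was below every untreated bladder in Kit (0.362 CPM against 28.2 to 36.9), Hdc (0.181 against 0.782 to 1.07), Tpsb2 (7.78 against 10.4 to 11.1), Cpa3 (4.07 against at least 4.79) and Tpsab1 (3.35 against 5.13 to 9.99).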

How the results depend on the processing

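The count of members called was 0 in UT against UN and in the difference of the organs' BBN effects under every alternative that was run, the replicate block by mouse included, and 1 with that block in U against untreated bladder, as without it. In UN against U it was 0 under limma-trend and with counts summed per mouse, and 1 to 2 when each library was left out; the 2 were Hdc and Kit, without UN 9. In UT against U it was 1 with counts summed per mouse. In BBN against untreated bladder it was 0 with column totals and with the bladder of mouse 6 added, and 0 to 1 when each library was left out. In U against untreated bladder it was 0 with column totals, under limma-trend and with the bladder of mouse 6 added, and 0 to 1 when each library was left out. Of 66 differences (the 8 members and Mcpt1, Mcpt2 and Tpsab1 in the 6 comparisons), 21 changed sign under at least 1 alternative, and 0 of these 21 had been called. Among the values given above, the sign turned for Fcer1a in UT against UN (−0.030 under limma-trend and −0.22 with the replicate block), for Ms4a2 in UN against U (−0.034 without libraries of RNA integrity under 5) and for Kitl in UT against U (0.11 with column totals). The causes were not tested.

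Over all genes, calls in UT against UN were 438 higher and 1245 lower, but 1 and 0 with UT and UN alone, 0 and 0 with the replicate block in that fit, 0 and 0 with RNA integrity as a covariate (1372 at an unadjusted p under 0.05), 4 and 1 without libraries of low integrity, 4 and 0 with counts summed per mouse and 206 and 658 with all 11 UT libraries. UN against U gave 147 and 13 with counts summed per mouse and 1136 and 603 under limma-trend, against 1851 and 257. BBN against untreated bladder gave 4430 and 1156 by DESeq2, 2507 and 1131 in libraries of the first code range and 1884 and 1601 without low-integrity libraries, against 1274 and 984. U against untreated bladder gave 2402 and 2188 with the untreated libraries alone, an alternative added after seeing the data, 2389 and 2213 with the replicate block in that fit, and 2173 and 2068 without low-integrity libraries, against 1321 and 1637. The difference of effects gave 491 and 506 by DESeq2, 797 and 377 without low-integrity libraries and 243 and 175 under limma-trend and 199 and 138 with a random effect of the mouse in limma-trend, against 309 and 128 by edgeR. With each library left out in turn, calls ran from 168 (without UN 6) to 928 (without UN 7) higher and 367 (without UN 6) to 1663 (without UN 3) lower in UT against UN, 1392 to 2162 and 132 (without UN 3) to 552 (without UN 9) in UN against U, 2780 to 2964 and 2119 to 2339 in UT against U, 518 to 1499 and 479 to 1103 in BBN against untreated bladder (lowest without untreated bladder 1), 808 to 1247 and 1060 to 1474 in U against untreated bladder, and 127 to 459 and 29 to 204 for the difference of effects (lowest without untreated bladder 3). Depth limits Ms4a2, Fcer1a and Mcpt4 most, since many libraries hold under 10 of their counts.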
